A study of Homo sapiens with 12 samples.

Results

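DNA replication genes encode the proteins that license origins, unwind the duplex, copy both strands and join the new fragments. BG4 chromatin immunoprecipitation was examined at 45 of them: origin recognition complex (ORC) subunits with CDC6 and CDT1, MCM proteins with CDC45, GINS, DNA polymerases with primase, the PCNA clamp with its RFC loader, the RPA single-strand binding protein, and the Okazaki fragment enzymes FEN1 and LIG1. BG4 is an antibody fragment that binds G-quadruplexes, four-stranded structures that guanine-rich DNA can form. Each gene took the window of 400 bp around the same-strand annotated transcription start site (TSS) that lay nearest to its RefSeq 5′ end, within 1 kb. A window was found for 39 of the 45 genes, among 16621 of 20056 protein-coding genes and 58381 windows in all. GINS2, GINS3, GINS4, POLD3, POLD4 and RFC5 had no window by this rule.

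The study profiled 1 condition, untreated HEK293, a human embryonic kidney cell line that carries extra copies of some chromosomes. Its 3 biological replicates (BioRep1, BioRep2 and BioRep3) each comprised 3 technical libraries precipitated with BG4 and 1 input without the antibody step. All groups shared the cell line, formaldehyde fixation and sonication, and the inputs were not analysed here. Chromatin reads give no expression, so the cell line label was not checked against markers. The 9 libraries held 372030 to 846114 reads in windows, and 5.15 to 9.97% of windows were empty in a library. Values are the reads in a window scaled to the reads in all windows of the library (CPM), averaged over technical libraries and given as mean ± SD of the 3 biological replicates. All windows have the same length, so no length correction was needed, but levels were not corrected for copy number or mappability, which can differ between genes. In bulk chromatin, more cells with a structure, more gene copies and stronger capture per copy cannot be told apart.

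Licensing loads the MCM helicase onto origins through ORC, CDC6 and CDT1. CDC45 and GINS then complete the active helicase, polymerase alpha with primase lays primers, and polymerases epsilon and delta extend them with the help of PCNA. Many genes of this set are known as cell-cycle-regulated genes whose promoters are CpG-rich and lack a TATA box. G-quadruplex mapping in cells is known to place many of these structures in nucleosome-depleted promoters of active genes.

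The promoter stretches below show what the antibody could meet at members of high and low signal. They were searched for a motif of 4 runs of at least 3 G joined by loops of 1 to 7 bases, on both strands, in the window from 250 bases before to 50 bases after the RefSeq 5′ end (RefSeq, GRCh38.p14). Capitals mark the G runs of the motif. Sequences are from the 3 members of highest mean CPM that held a motif (PCNA, MCM9 and LIG1) and from the 2 of lowest mean CPM (POLE4 and CDT1). PCNA held 2 motifs, and its second lies between its own TSS and that of its divergent neighbour CDS2.
PCNA, opposite strand (chr20:5126834-5126862, + strand): ccGGGagaGGGagctctcGGGtcGGGGct
PCNA, gene strand (chr20:5126718-5126766, - strand): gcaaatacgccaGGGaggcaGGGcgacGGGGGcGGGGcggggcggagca
MCM9, opposite strand (chr6:118935206-118935251, + strand): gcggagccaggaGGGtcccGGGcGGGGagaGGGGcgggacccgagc
LIG1, opposite strand (chr19:48170438-48170467, + strand): gaatGGGaggaGGGcGGGaaaaGGGGtgaa
POLE4, opposite strand (chr2:74958517-74958546, - strand): gaaaccGGGtGGGcGGGGGtcGGGctccgg
CDT1, opposite strand (chr16:88803678-88803706, - strand): gcacGGGGGGaGGGaaGGGacGGGGcgcg
CDT1, gene strand (chr16:88803731-88803760, + strand): ccGGGGGcGGGGccaGGGcgcccgcGGGaa
Peaks of all 3 lists overlapped the motifs of PCNA, MCM9 and CDT1. The LIG1 motif was overlapped in 2 lists and the POLE4 motif in none. The CDT1 motifs lie 469 to 545 bp downstream of its window TSS, outside its window.

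Of the 39 members in the RefSeq promoter table, 12 held the motif, compared with 31.1% of the 13324 promoters of protein-coding genes with a window and 24.1% of all 27305 promoters in the table. They were ORC5, CDT1, MCM2, MCM9, GINS2, POLD4, POLE2, POLE4, PCNA, RPA1, FEN1 and LIG1. These promoters held 15 motifs, 6 on the gene strand and 9 on the opposite strand, and all 15 ended before the RefSeq 5′ end. Peaks of all 3 lists overlapped 7 of the 15, and no peak overlapped 3 of them, at ORC5, POLD4 and POLE4. Among members with a window, 7 of the 10 with a motif had peaks of all 3 lists in the window, against 32.1% of protein-coding genes with a motif. Of the 25 without a motif, 13 had them, against 23% of such protein-coding genes. A motif match is a description of letters, not a mapped structure.

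The 120 bases before the window TSS are given on the gene strand for POLD1, POLE and PCNA, all high, and for PRIM2, low, with runs of at least 3 G or C in capitals. These 4 were chosen after their values were seen. The PRIM2 stretch may not be its main promoter. The outermost annotated start of PRIM2 lies 93265 bp further upstream and had peaks in BioRep2 and BioRep3 within 1 kb.
POLD1 (chr19:50384084-50384203, + strand): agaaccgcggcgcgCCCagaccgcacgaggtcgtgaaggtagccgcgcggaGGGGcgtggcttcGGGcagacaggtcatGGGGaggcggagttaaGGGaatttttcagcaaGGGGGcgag
POLE (chr12:132687366-132687485, - strand): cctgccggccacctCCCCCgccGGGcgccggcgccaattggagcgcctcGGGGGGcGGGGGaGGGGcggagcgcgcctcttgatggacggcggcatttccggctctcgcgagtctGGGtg
PCNA (chr20:5126627-5126746, - strand): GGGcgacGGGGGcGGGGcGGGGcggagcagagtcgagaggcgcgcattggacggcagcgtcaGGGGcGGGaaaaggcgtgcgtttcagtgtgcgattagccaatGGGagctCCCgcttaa
PRIM2 (chr6:57314685-57314804, + strand): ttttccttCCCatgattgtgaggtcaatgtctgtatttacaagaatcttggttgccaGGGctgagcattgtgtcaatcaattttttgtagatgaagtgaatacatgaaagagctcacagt
PCNA held 7 G runs, POLD1 and POLE 5 each, and PRIM2 1, and each stretch held 1 C run. GC content was 68.3% for PCNA, 66.7% for POLD1, 77.5% for POLE and 38.3% for PRIM2. The 300-base RefSeq promoters of POLD1 and POLE held no motif by the definition above, and each held 1 where loops of up to 12 bases were allowed. Peaks of all 3 lists overlapped the stretches of PCNA, POLD1 and POLE, and no peak overlapped that of PRIM2.

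Most replication genes carried BG4 peaks at the TSS. A peak overlapped the window of 23 of 39 members in the BioRep1 list, 28 in BioRep2 and 30 in BioRep3, beside 25.7%, 36.1% and 39% of protein-coding windows. All 3 lists had a peak at 22 members, or 56.4%, against 24.2% of protein-coding genes. At least 2 lists had one at 27 members (34.7% of protein-coding genes) and at least 1 list at 32 (41.9%). No list had one at 7 members, ORC4, CDT1, PRIM2, POLD2, RFC1, RFC4 and RPA3, against 58.1% of protein-coding genes. Within 1 kb of the window TSS, 29 members had peaks of all 3 lists (29.6% of protein-coding genes). No list had a peak there at PRIM2, RFC1, RFC4 and RPA3. Where an overlap of at least 100 bp with the window was required instead of 1 bp, 13 members had all 3 lists, against 16.2% of protein-coding genes.

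Median CPM over a set of windows was taken in each biological replicate and then averaged, unless stated otherwise. For members it was 52.4 ± 2.43 CPM (SD, n = 3), compared with 23.9 ± 0.582 CPM over protein-coding genes. Of the members, 32 lay above the protein-coding median and 22 lay above its upper quartile of 47.2 CPM. The levels ran from 5.60 ± 1.55 CPM at RPA3 to 105 ± 22.8 CPM at RPA2. At equal numbers of lists, the medians of members and protein-coding genes were close. The lists and the CPM come from the same precipitations, so the level at each number of lists is largely set by peak calling. The closeness is therefore no independent result about the members. The median was 63.8 CPM for members with 3 lists and 64.7 CPM for protein-coding genes with 3. With 2 lists the medians were 44.3 and 43.3 CPM, with 1 list 35.5 and 34.9 CPM, and with none 11.9 and 11.3 CPM.

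**Figure D1:**
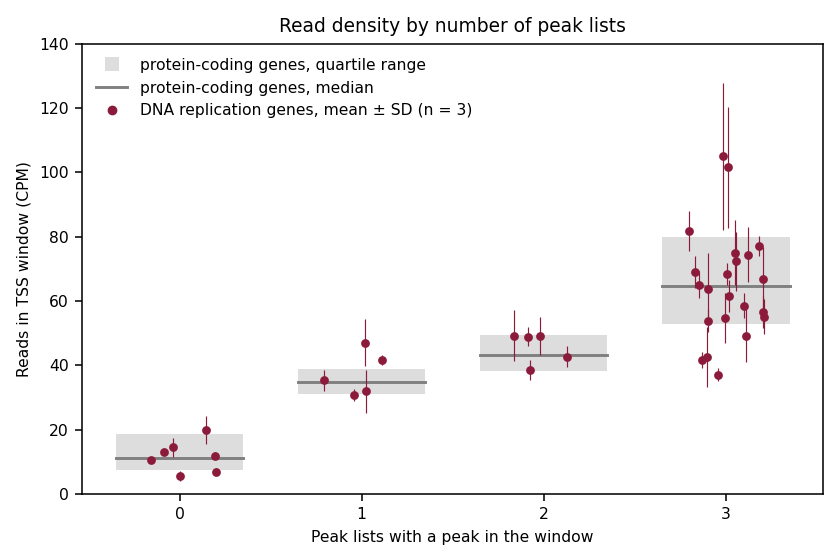
Reads in the TSS window (CPM, y axis) by the number of peak lists with a peak in the window (x axis), for the 39 members as points with SD bars (n = 3 biological replicates) and for protein-coding genes by their median and quartiles. Member medians run from 11.9 CPM with no list to 63.8 CPM with 3 lists, beside 11.3 and 64.7 CPM for protein-coding genes. Lists and CPM come from the same precipitations, so the rise is largely set by peak calling.

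**Figure D2:**
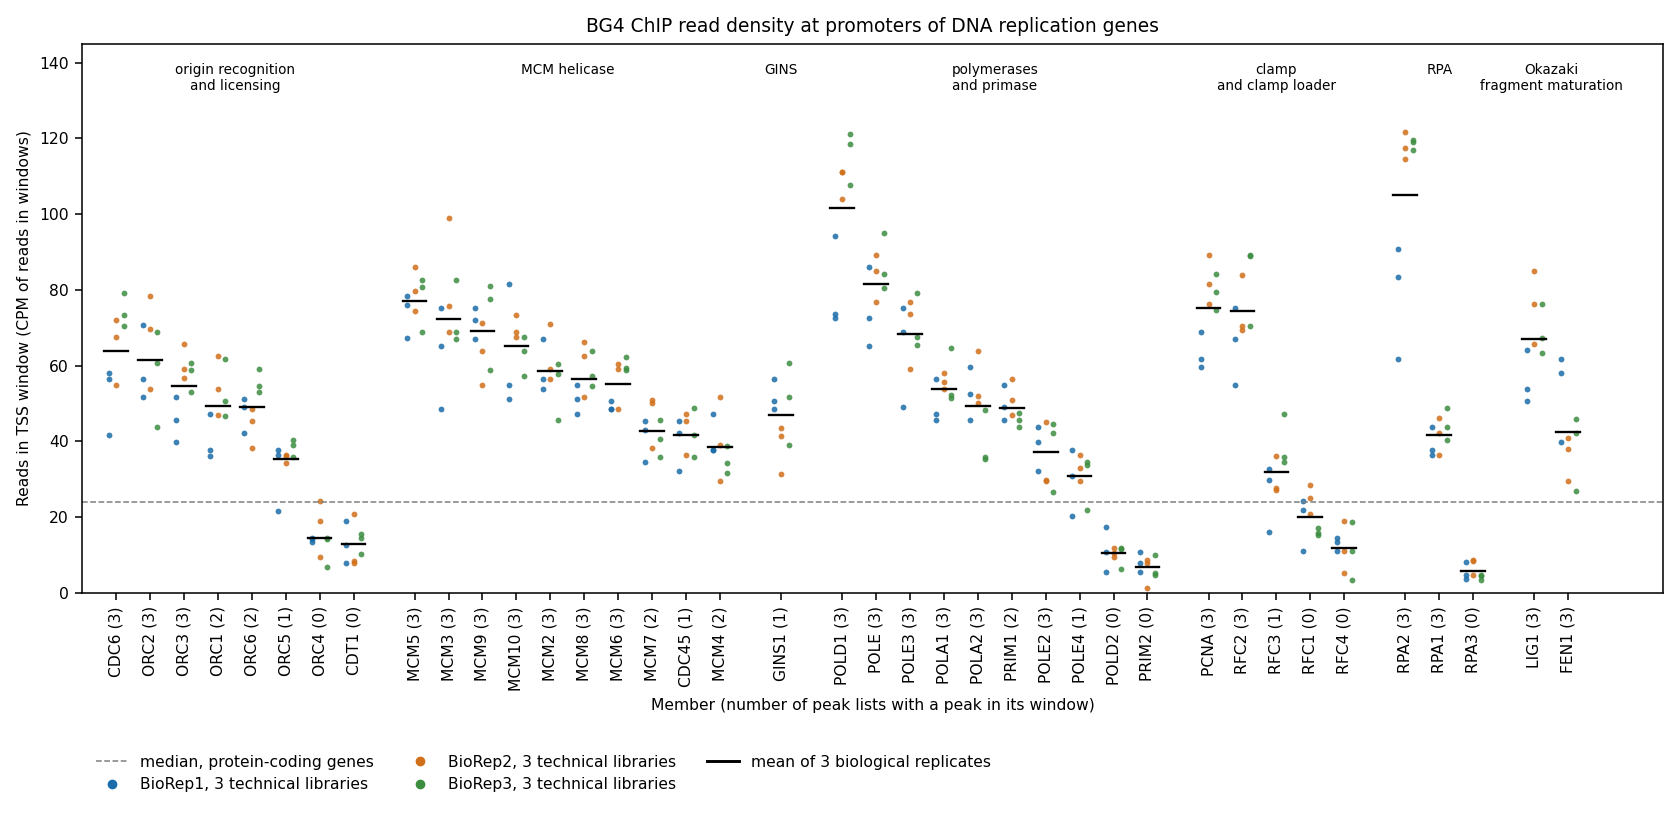
Reads in the TSS window (CPM, y axis) of each member with a window, ordered by complex, with 1 point per library coloured by biological replicate and a bar for the mean of the 3 biological replicates. The number of peak lists stands in parentheses on the x axis, and the dashed line is the protein-coding median of 23.9 CPM. POLD1 and RPA2 stand highest, with their 3 BioRep1 points below the others.

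Among the genes of origin recognition and licensing, 3 of 8 windows had peaks of all 3 lists and the median was 48.8 ± 5.64 CPM. CDC6, the ATPase that helps ORC load MCM, was the highest at 63.7 ± 11.2 CPM (3 lists, chr17:40287434-40287833, hg38). Its libraries held 57.9, 56.4 and 41.7 CPM in BioRep1, 67.6, 72.1 and 54.8 CPM in BioRep2, and 73.2, 70.4 and 79.2 CPM in BioRep3. The BioRep3 libraries were above all of BioRep1 at CDC6, and BioRep2 overlapped both. The share of all windows in which replicates separate like this was not counted, which also holds for GINS1 and LIG1 below. ORC2 held 61.5 ± 5.06 CPM and ORC3 held 54.6 ± 7.80 CPM, both with 3 lists. ORC1, the ATPase subunit that binds origin chromatin, held 49.2 ± 7.82 CPM and ORC6 held 49.0 ± 5.90 CPM, each with peaks in BioRep2 and BioRep3. ORC5 held 35.3 ± 3.34 CPM, with a peak in BioRep3. ORC1 and ORC6 differed by less than either SD.

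The lowest windows of this group were ORC4, at 14.4 ± 2.93 CPM, and CDT1, at 12.9 ± 0.547 CPM, with no peak in any list. CDT1 brings MCM to the origin. Its window (chr16:88803014-88803413) held 7.83, 18.8 and 12.7 CPM in BioRep1, 20.8, 8.27 and 7.83 CPM in BioRep2, and 15.6, 14.4 and 10.1 CPM in BioRep3, from 69 reads in all. The 3 replicates overlapped throughout. Both genes had peaks of all 3 lists within 1 kb of the window TSS, as did POLD2, and 2.91% of protein-coding genes were in this position. The CDT1 region was centred 525 bp downstream of the window TSS, which is at -51 bp from the RefSeq 5′ end. The ORC4 region was centred 721.5 bp downstream of its window TSS, near the TSS of MBD5 on the other strand, 593 bp inside ORC4. The MBD5 window held 56.4 ± 6.28 CPM with peaks of all 3 lists.

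The MCM proteins and CDC45 had a peak in every one of their 10 windows in at least 1 list, and 7 had peaks of all 3 lists. Their median was 58.5 ± 3.13 CPM. MCM5, a subunit of the MCM2 to MCM7 ring, was the highest at 77.2 ± 3.15 CPM (chr22:35399864-35400263). It held 78.3, 67.2 and 76.1 CPM in BioRep1, 79.8, 74.5 and 86.2 CPM in BioRep2, and 82.6, 68.9 and 80.9 CPM in BioRep3. The replicates overlapped. MCM3 followed at 72.3 ± 9.12 CPM, within its SD of MCM5.

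MCM9, which acts with MCM8 in recombination repair, held 69.1 ± 5.05 CPM and MCM8 held 56.6 ± 4.88 CPM. MCM10, a helicase activation factor, held 65.1 ± 4.20 CPM. The ring subunits MCM2 and MCM6 held 58.5 ± 3.83 CPM and 55.1 ± 5.51 CPM. All of these had 3 lists. MCM7 held 42.6 ± 3.23 CPM with peaks in BioRep1 and BioRep2, and CDC45 held 41.7 ± 1.59 CPM with a peak in BioRep3.

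MCM4 was the lowest of the MCM group at 38.6 ± 3.22 CPM, with peaks in BioRep2 and BioRep3. It held 37.6, 37.6 and 47.1 CPM in BioRep1, 29.5, 39.0 and 51.7 CPM in BioRep2, and 34.3, 31.6 and 38.7 CPM in BioRep3, and the replicates overlapped. Its window TSS lay 756 bp upstream of the gene start used, and a region of all 3 lists was centred at -64.5 bp from that start. MCM7 was alike in this respect: its window TSS lay 543 bp away and a region of all 3 lists was centred at -125 bp from its RefSeq 5′ end.

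GINS joins MCM and CDC45 in the active helicase, and only GINS1 of its 4 subunits had a window by the rule. GINS1 (chr20:25407528-25407927) held 48.5, 56.4 and 50.7 CPM in BioRep1, 43.4, 41.4 and 31.3 CPM in BioRep2, and 39.0, 51.7 and 60.6 CPM in BioRep3. The BioRep2 libraries were below all of BioRep1, while BioRep3 spanned both, and the share of windows with this order was not counted. The mean was 47.0 ± 7.25 CPM, with a peak in the BioRep3 list. GINS2 had peaks of all 3 lists in a region centred at -140 bp from its RefSeq 5′ end, while its nearest same-strand window, 1119 bp away, held 14.4 ± 2.87 CPM and no peak. GINS3 had no peak within 1 kb. The strand of GINS4 was not in the table used. Its gene start coordinate had a window of 89.3 ± 13.2 CPM with 3 lists and its gene end coordinate a window on the other strand of 6.89 ± 1.37 CPM with none, so neither was assigned.

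The polymerase and primase windows spanned most of the range of the whole set. Their median was 48.6 ± 5.42 CPM, and 6 of 10 had peaks of all 3 lists. POLD1, the catalytic subunit of polymerase delta, was the highest at 102 ± 18.9 CPM (chr19:50384005-50384404). It held 73.6, 72.6 and 94.2 CPM in BioRep1, 104, 111 and 111 CPM in BioRep2, and 118, 108 and 121 CPM in BioRep3. All BioRep1 libraries were below all others at POLD1. The share of all windows with this order, here and at PCNA and RPA2 below, was not counted. POLE, the catalytic subunit of polymerase epsilon, held 81.6 ± 6.23 CPM.

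The other subunits apart from PRIM2 lay between 10.5 and 68.3 CPM. POLE3, a histone-fold subunit of polymerase epsilon, held 68.3 ± 3.44 CPM with 3 lists, and its partner POLE4 held 30.8 ± 1.84 CPM with a peak in BioRep2. POLE2 held 37.1 ± 2.01 CPM with 3 lists. POLA1 and POLA2, of polymerase alpha, held 53.9 ± 3.58 CPM and 49.3 ± 8.25 CPM, both with 3 lists. PRIM1, the catalytic primase subunit, held 48.9 ± 3.03 CPM with peaks in BioRep2 and BioRep3. POLD2, which bridges the delta subunits, held 10.5 ± 0.65 CPM with no peak in its window, and a region of all 3 lists was centred at -74.5 bp from its RefSeq 5′ end, which lies 810 bp from the window TSS.

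PRIM2, the large primase subunit, was the lowest of the group at 6.83 ± 1.07 CPM (chr6:57314606-57315005), from 36 reads. It held 7.83, 10.8 and 5.44 CPM in BioRep1, 8.67, 1.18 and 7.83 CPM in BioRep2, and 4.68, 10.1 and 5.05 CPM in BioRep3. These values overlapped across the replicates. Its outermost annotated start lies 93265 bp further upstream and had peaks in BioRep2 and BioRep3 within 1 kb. POLD4 had peaks of all 3 lists centred at -6.5 bp from its RefSeq 5′ end, while its nearest same-strand window lay 3376 bp away at 31.5 ± 3.98 CPM. POLD3 had no window at either gene end, and its gene start coordinate had peaks in BioRep2 and BioRep3.

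PCNA, the sliding clamp, and RFC2, a small loader subunit, stood high, and the other loader subunits were lower. PCNA (chr20:5126427-5126826) held 59.5, 61.8 and 68.9 CPM in BioRep1, 76.3, 81.5 and 89.3 CPM in BioRep2, and 79.5, 74.7 and 84.2 CPM in BioRep3, a mean of 75.1 ± 10.2 CPM with 3 lists. All BioRep1 libraries were below the rest at PCNA. RFC2 held 74.4 ± 8.57 CPM with 3 lists, within its SD of PCNA. RFC3 held 31.9 ± 6.64 CPM with a peak in BioRep3, and RFC1, the large subunit, held 19.9 ± 4.43 CPM with none. RFC4 (chr3:186806859-186807258) was the lowest at 11.9 ± 1.00 CPM with no peak, and held 11.0, 13.4 and 14.5 CPM in BioRep1, 5.20, 18.9 and 11.0 CPM in BioRep2, and 10.9, 18.7 and 3.37 CPM in BioRep3. RFC4 values overlapped across all replicates. RFC5 had no window within 1 kb, but a region of all 3 lists was centred at -42 bp from its RefSeq 5′ end, and its nearest same-strand window, 3115 bp away, held 7.85 ± 0.791 CPM.

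The 3 RPA subunits, which form 1 heterotrimer on single-stranded DNA, covered the whole range of the set. RPA2 (chr1:27914547-27914946) held 90.8, 61.8 and 83.4 CPM in BioRep1, 114, 122 and 117 CPM in BioRep2, and 117, 119 and 120 CPM in BioRep3, a mean of 105 ± 22.8 CPM with 3 lists. All BioRep1 libraries lay below all others. RPA1 held 41.7 ± 2.50 CPM with 3 lists. RPA3 (chr7:7718408-7718807) held 4.70, 8.06 and 3.62 CPM in BioRep1, 8.67, 8.27 and 4.70 CPM in BioRep2, and 4.68, 4.31 and 3.37 CPM in BioRep3, a mean of 5.60 ± 1.55 CPM from 31 reads. No list had a peak within 1 kb of this RPA3 window TSS, and its replicates overlapped. RPA2 and RPA3 were absent from the promoter table and took the gene end that had a window. Starts inside these genes were not examined, so the RPA3 level may not be that of its main promoter.

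Both Okazaki fragment genes had peaks of all 3 lists. LIG1, the ligase that seals the fragments (chr19:48170404-48170803), held 64.2, 53.8 and 50.7 CPM in BioRep1, 76.3, 85.1 and 65.8 CPM in BioRep2, and 76.4, 63.2 and 67.4 CPM in BioRep3, a mean of 67.0 ± 9.91 CPM. FEN1, the flap endonuclease (chr11:61792781-61793180), held 57.9, 61.8 and 39.9 CPM in BioRep1, 29.5, 37.8 and 40.7 CPM in BioRep2, and 42.1, 45.9 and 27 CPM in BioRep3, a mean of 42.5 ± 9.33 CPM. BioRep1 was the lowest replicate by mean at LIG1 and the highest at FEN1. At LIG1 the BioRep1 libraries were below all of BioRep2 and overlapped BioRep3. At FEN1 they overlapped both other replicates.

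The order of the highest windows was not resolved beyond the spread. RPA2 and POLD1 differed by less than either SD. POLE, MCM5, PCNA, RFC2 and MCM3 followed, from 81.6 to 72.3 CPM, and each differed from the next by less than its own SD. To relate windows to their surroundings, each was divided by the mean over local windows. These lay within 5 Mb, had no peak in any list and were taken by no protein-coding gene under the rule. Other windows of such genes could remain among them. This local level ran from 4.94 CPM at RFC2 to 13.1 CPM at RPA2. Relative to it, RFC2 was the highest at 15.1 ± 2.48 times, followed by POLD1 at 11.6 ± 2.84 times and MCM3 at 9.85 ± 1.40 times. RPA2 stood at 8.09 ± 2.06 times. RPA3, at 0.645 ± 0.161 times, was below its local level, and PRIM2, at 0.907 ± 0.140 times, was within its SD of it. The median over members was 5.84 times, and 33 members exceeded 2 times. The local windows were chosen for having no peak, so windows with peaks lie above them largely by that choice. No share over protein-coding genes is given for this ratio, so it does not set the members apart from other genes.

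Peak regions of the members sat mostly on the upstream side of the RefSeq 5′ ends. Their position over all protein-coding genes is not given here, so whether this is particular to the set was not tested. A region merged from overlapping peaks of all 3 lists had its midpoint within 1 kb of the RefSeq 5′ end at 31 members. Counting the region nearest to the end at each member, the median midpoint was at -76.5 bp, with quartiles at -124 and -46.5 bp, and it was upstream at 26 of the 31. MCM7 and LIG1 each had a further region of all 3 lists downstream, centred at 597.5 and 507.5 bp. The 5 downstream were ORC4, MCM9, POLE3, RPA2 and FEN1. Against the window TSS, 28 members had such a region and the median midpoint was 9.75 bp downstream, with 13 upstream. The 31 regions nearest to the RefSeq 5′ ends were 185 to 588 bp long, with a median of 326 bp.

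**Figure D3:**
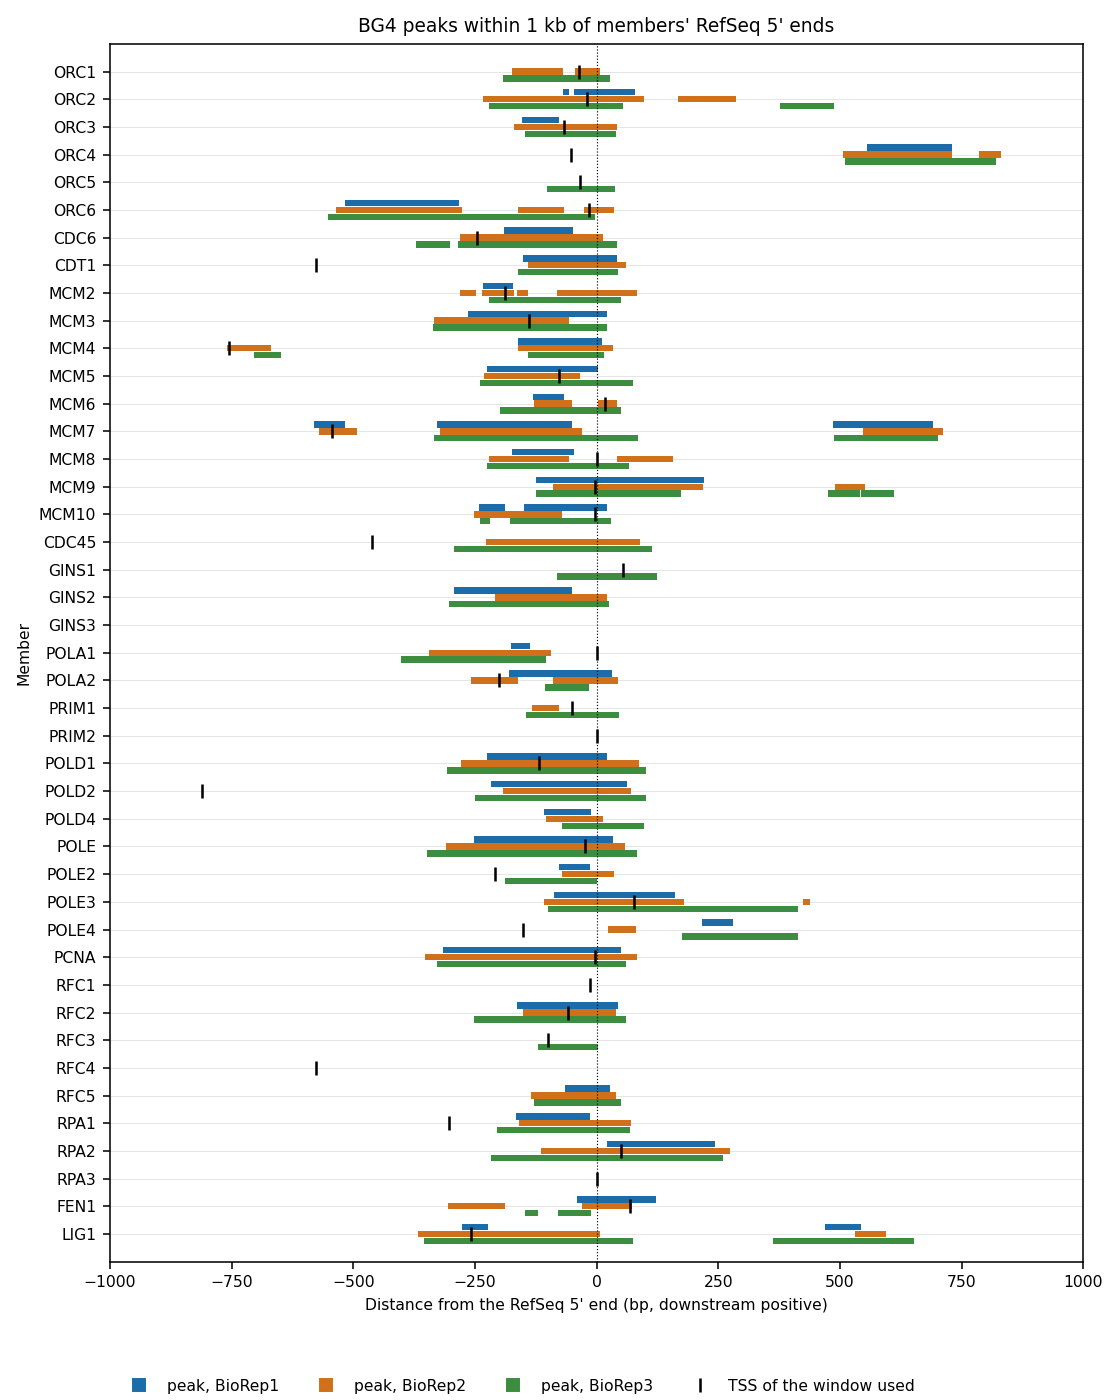
Peaks within 1 kb of the RefSeq 5′ end of each member (y axis, 43 members without GINS4 and POLD3), as horizontal bars by peak list, against the distance from that end in bp (x axis, downstream positive), with a tick for the TSS of the window used. Most peaks lie just upstream of 0, and the ticks of CDT1, MCM4, MCM7, CDC45, POLD2 and RFC4 lie more than 400 bp away.

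Which end the window marked moved with the result. The window TSS lay more than 400 bp from the RefSeq 5′ end at CDT1, MCM4, MCM7, CDC45, POLD2 and RFC4. None of these 6 had peaks of all 3 lists in the window, 3 had none, and their median was 25.7 CPM. In this paragraph a median is that of the genes' mean CPM, not an average of replicate medians. Of the other 33, 22 had all 3 lists, 4 had none, and the median was 54.6 CPM. Among protein-coding genes, peaks of all 3 lists were found at 9.7% of windows over 400 bp away (median 16.2 CPM) and at 25.7% of the others (median 25.9 CPM). The distance of 400 bp was chosen after seeing the data. Counted at the RefSeq 5′ end itself, within 200 bp, 25 of the 39 members in the promoter table, or 64.1%, had peaks of all 3 lists, against 26.2% of 15842 protein-coding genes. There, GINS3, ORC4, PRIM2, RFC1 and RFC4 had none.

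Many members share a promoter with another gene. Another TSS on the other strand lay within 1 kb of the window TSS at 19 of 39 members, against 24.1% of protein-coding genes. Of these 19, 11 had at least 1 divergent neighbour and 8 had overlapping neighbours only, as judged from the window TSS. At MCM2 and MCM7 the neighbour's TSS lies downstream of the window TSS, by 28 and 391 bp. The RefSeq 5′ ends of MCM2 and MCM7 lie further downstream, at 188 and 543 bp, so from those ends both neighbours are divergent. Peaks of all 3 lists were found at 11 of the 19, beside 39.9% of protein-coding genes with such a TSS. They were also found at 11 of the 20 members without one, beside 19.2% of protein-coding genes without one. Below, unnamed marks a neighbour whose window no RefSeq gene took by the rule, and does not mean that the gene lacks a name.

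The closest pair was MCM4 with PRKDC, the catalytic subunit of a DNA repair kinase, with TSSs 2 bp apart. Their windows shared 398 bp, so their levels of 38.6 ± 3.22 and 38.4 ± 3.05 CPM rest on the same reads and give no comparison. The same holds in part for MCM2 and an unnamed gene at 28 bp, ORC3 and RARS2 at 64 bp, LIG1 and ZSWIM9 at 89 bp, MCM8 and TRMT6 at 94 bp, ORC1 and PRPF38A at 105 bp, ORC6 and VPS35 at 125 bp, and PCNA and CDS2 at 160 bp. At PCNA the side of CDS2, a phospholipid synthesis enzyme, held 89.6 ± 9.0 CPM against 75.1 ± 10.2 CPM. At LIG1 the side of ZSWIM9 held 52.9 ± 8.08 CPM against 67.0 ± 9.91 CPM. At ORC6 the side of VPS35, a retromer subunit, held 66.1 ± 9.33 CPM with 3 lists against 49.0 ± 5.90 CPM with 2.

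The next pairs shared less of their windows. POLE and its divergent neighbour PXMP2, 241 bp away with 159 bp shared, held 81.6 ± 6.23 and 77.2 ± 6.94 CPM, and a further divergent TSS at 684 bp held 16.1 ± 2.37 CPM. CDC45 and UFD1, at 244 bp with 156 bp shared, held 41.7 ± 1.59 and 40.8 ± 2.49 CPM. The AP4M1 window, 391 bp downstream of the MCM7 window TSS, shared 9 bp with the MCM7 window and held 75.5 ± 6.37 CPM against 42.6 ± 3.23 CPM. FEN1 had divergent neighbour TSSs at 178 bp, with 222 bp shared, and at 419 bp, with none shared. They held 54.3 ± 9.86 and 37.9 ± 4.36 CPM. By the rule TMEM258 took the window at 419 bp and no gene took that at 178 bp. Which of these TSSs is that of TMEM258 was not checked. The TSSs opposite POLE3 (C9orf43, 618 bp), RPA1 (SMYD4, 932 bp) and RFC4 (an unnamed gene, 634 bp) had no peak in any list, at 21.9 ± 2.10, 16.9 ± 1.44 and 8.28 ± 0.910 CPM. The remaining neighbours were an unnamed gene 212 bp inside PRIM1, with 188 bp shared, at 35.8 ± 4.16 CPM, LOC124901389 377 bp inside MCM9 at 39.6 ± 0.634 CPM and LOC105373835 417 bp inside ORC2 at 37.9 ± 3.62 CPM.

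**Figure D4:**
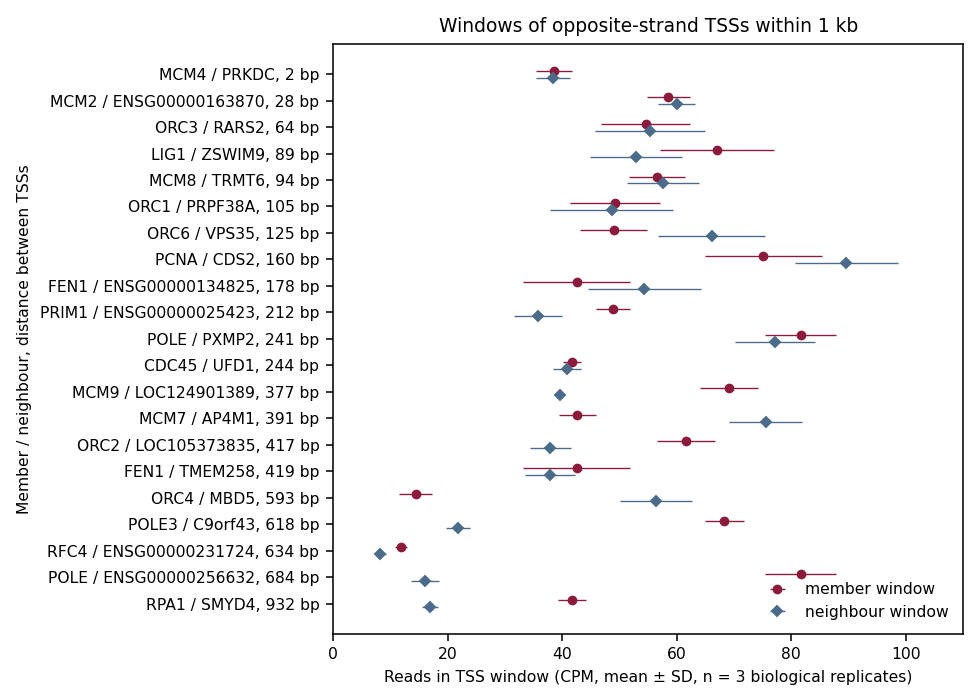
Reads in the TSS window (CPM, x axis, mean ± SD of 3 biological replicates) for each member and its neighbour on the other strand (y axis, with the distance between the TSSs). ORC4 at 14.4 CPM and MBD5 at 56.4 CPM lie far apart, and MCM4 and PRKDC coincide. A neighbour's name is that of the RefSeq gene that took its window by the rule.

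Differences between the biological replicates were tested in 33 of the 39 member windows, and ORC4, CDT1, PRIM2, POLD2, RFC4 and RPA3 fell below the filter on low counts. By edgeR's quasi-likelihood test over the 3 replicates, 0 members were called at an adjusted p under 0.05, as were 0% of the 17499 windows tested. At an unadjusted p under 0.05 there were 4 members, RPA2, POLD1, POLA2 and FEN1, beside 7.88% of windows. DESeq2 was run on all 58381 windows without that filter, so its counts have another base than those of edgeR. It called 0 windows and had 2 members and 807 windows at an unadjusted p under 0.05. The smallest adjusted p of a member was 0.362 (edgeR, Benjamini-Hochberg), at RPA2. RPA2 was higher in BioRep2 than in BioRep1 by 0.52 ± 0.136 on the log2 scale (SE), in 3 of 3 libraries. POLD1 was higher there by 0.41 ± 0.139 and FEN1 lower, at -0.55 ± 0.216. The technical libraries are the replicates of this test, and nothing in the labels ties the biological replicates to separate cultures, so p-values measure only the spread between technical libraries.

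A wider list of 40 replication genes outside the core machinery, such as checkpoint, nucleotide supply and chromatin assembly genes, gave a similar median. Of its 39 genes with a window, 18 had peaks of all 3 lists, or 46.2%, and 7 had none. Their median was 49.0 ± 2.55 CPM. TK1, the thymidine kinase of nucleotide salvage, was the highest at 142 ± 20.1 CPM, and DUT, the dUTPase, the lowest at 9.52 ± 1.18 CPM.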

How the data were processed

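BG4 ChIP of HEK293 was read from 9 libraries (3 biological replicates with 3 technical libraries each), grouped by sample title. The authors deposited, for each library, unscaled read counts in windows that reach 200 bp to each side of GENCODE release 28 TSSs on hg38. Deposited peak lists, 1 per biological replicate, give positions (coordinates only, with no score). Per the submitters' processing notes, the tools included BWA, cutadapt, MACS2, Picard and bedtools. Versions, peak thresholds and duplicate handling: not given in the sources used here.

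Counts were divided by the reads in all windows of a library (as CPM) and averaged over technical libraries, then over biological replicates. A peak counted with an overlap of 1 bp. RefSeq 5′ ends came from the promoter table (GRCh38.p14). MCM4, MCM5, RPA2 and RPA3, absent from it, took the gene end that had a window. Replicates were compared with edgeR 4.0.16 (TMM, filterByExpr, robust quasi-likelihood, R 4.3.3) over all windows, Benjamini-Hochberg adjusted, threshold 0.05, with DESeq2 1.42.0 as an alternative, and the fit was tested on simulated data. Python 3.11.15 did the rest.

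All 45 members are accounted for; the highest and lowest of each complex are given in every library. Neighbours are named where they share a promoter and a RefSeq gene took their window. Members and gene lists were chosen with earlier results of these data known. A window near the lowest levels rests on few reads (31 at RPA3 over 9 libraries), which limits its precision.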

Additional observations from a re-analysis of the deposited data

How the results depend on the processing

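The median CPM of the members and their ratio to local windows moved by less than 1 SD under all alternatives run. The median lay between 51.3 and 53.7 CPM when 1 library or 1 biological replicate was left out. The count of members with peaks of all 3 lists fell from 22 to 13 with an overlap of at least 100 bp and to 13 with only the peaks longer than their list's median, and was 22 to 26 when 1 list was left out. The count of members with another TSS on the other strand fell from 19 to 12 with TSSs within 300 bp. Members with a motif rose from 12 to 39 with runs of at least 2 G. The median peak offset of 9.75 bp from the window TSS was 2 bp with the BioRep3 list, -12 bp with only midpoints inside the window, and -76.5 bp from the RefSeq 5′ end, an anchor chosen after seeing the data. No member was called between biological replicates under any setting run. Over all windows the count of 0 became 25 without the filter on low counts, 3 at an adjusted p of 0.1 and 0 to 1 when 1 library was left out, with 1 call each without BioRep1 replicate 1 and without BioRep3 replicate 2. With the technical number as a replicate block 0 windows and 0 members were called. The numbers share only a label: deviations of same-numbered libraries correlated between -0.010 and 0.019 over 14684 windows, and 3 of 9 libraries correlated best with their own number. The cause of these shifts was not tested. Depth limits the lowest windows, where PRIM2 and RPA3 rest on 36 and 31 reads.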

Other observations

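The 300-base promoters of members had a median GC content of 65.0%, beside 63.0% for protein-coding promoters. It was 65.8% for members with peaks of all 3 lists and 63.3% for the other members. Across the 35 members with both a promoter and a window, Spearman's rho between GC content and mean CPM was 0.019, and across 13324 protein-coding promoters it was 0.446. GC content was read at the RefSeq 5′ end and CPM in the window, which are different stretches where the window TSS lies far off, as at CDT1 (74.3% GC) and POLD2 (74.7% GC). Over the 30 members with the window TSS within 400 bp, a distance chosen after seeing the data, rho was 0.182, and over 12099 such protein-coding promoters it was 0.481. These describe genes of the same 9 libraries, which are not independent replicates.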
